A study of Homo sapiens with 12 samples.

Results

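The cancer-testis antigen families comprise genes whose proteins are normally made mainly in the germ cells of the testis and can reappear in tumours, where T cells may recognise their peptides. Here they were taken as the genes present in both expression tables whose names begin with MAGEA, MAGEB, MAGEC, MAGED, MAGEE, MAGEF, MAGEH, PAGE, XAGE, GAGE, SSX followed by a digit, or CTAG, with PRAME added. This gave 28 of 19423 genes, namely 10 MAGEA, 1 MAGEB, 2 MAGEC, 2 MAGED, 1 MAGEE, 1 MAGEF, 1 MAGEH, 3 PAGE, 1 GAGE, 1 CTAG and 3 CTAGE genes, PRAME, and SSX2IP. SSX2IP is the SSX2-interacting protein, a centrosome and cell junction protein, and entered by its name without being an SSX gene. The 3 CTAGE genes entered through the prefix CTAG and form a separate family. The MAGED, MAGEE, MAGEF and MAGEH genes are expressed in many normal tissues. The name cancer-testis genes is used below for all 28 genes of the name rule, these included. No XAGE gene and no SSX gene itself was analysed here. Of the 28 genes, 22 lie on chromosome X.

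The study used A375, a line from human skin melanoma, and 253J, a line from human transitional cell carcinoma of the bladder. Each line was split by repeated flow cytometry into cells that had internalised at least 1 fluorescent 2.4 µm bead (positive) and cells without a bead (negative), with 24 h of beads after 5 generations of growth and 5 rounds of sorting. Both branches were exposed to the same beads and went through the same number of sorts, through opposite gates. Each line and branch has 3 poly(A) RNA libraries. The reads over all genes analysed, recovered from the deposited normalised values, summed to 14576506 to 17916519 per library. Separate cultures for the 3 libraries of a group are not stated in the labels. The p-values then measure only the spread between these libraries, which may be technical. A change that arose in 1 sorted branch by another route, and one linked to bead uptake, cannot be told apart.

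Most genes of the MAGEA, MAGEB and MAGEC (type I MAGE), PAGE, GAGE and CTAG families sit on chromosome X. They are silent in most adult somatic tissues, where the CG dinucleotides of their promoters are methylated. Loss of that methylation in tumours can switch them on. Type II MAGE genes, such as MAGED, MAGEE, MAGEF and MAGEH, are expressed in many normal tissues, and many MAGE proteins of both types bind and steer RING-type E3 ubiquitin ligases.

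Values are normalised read counts, in which a library's reads are divided by its size factor, and each line was scaled on its own. Changes are log2 differences of positive minus negative with their standard errors, from limma-trend on log2(value + 1), fitted where a gene averaged 10 or more, and a gene was called when its Benjamini-Hochberg adjusted p was under 0.05. Means are given ± SD over 3 libraries. In this bulk RNA, fewer cells that express a gene and less of its RNA per cell cannot be told apart.

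In A375, 4 of the 20 cancer-testis genes tested were called, at a background of 10.2% of all 14118 genes tested. PAGE5 fell, where 5.26% of all genes were called lower, and MAGEA1, MAGED1 and MAGEC2 rose, where 4.99% were called higher in the positive branch. In 253J, 0 of 8 were called by limma, at a background of 1.09%. At an unadjusted p under 0.05, 1 of those 8 passed (13.6% of all genes). On the recovered reads edgeR and DESeq2 also called 0, where they called 1.15% and 2.12% of all genes, as did limma with the replicate number as a block (14%). In the test of the difference between lines, 1 of the 7 genes tested in both, MAGED1, was called, at a background of 6.16%.

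The promoters of PAGE5, of its neighbour and relative PAGE2, of MAGEC2 and of MAGED1 are shown. PAGE5 was called in A375 and PAGE2, of the same family, was not, while MAGEC2 and MAGED1 were called higher. Promoter CG methylation is the known switch of the MAGEA, MAGEB, MAGEC, PAGE, GAGE and CTAG families, which include all of these but MAGED1. MAGEA1, also called, had no promoter entry. The sequences are from RefSeq on GRCh38.p14, 250 bases before to 50 after a transcript start, in lower case with every CG in capitals. PAGE5 lies at chrX:55220096-55220395, PAGE2 at chrX:55088768-55089067, and the MAGED1 windows at chrX:51802826-51803125 and chrX:51893373-51893672, all on the plus strand, while MAGEC2 lies at chrX:142205241-142205540 on the minus strand.
PAGE5: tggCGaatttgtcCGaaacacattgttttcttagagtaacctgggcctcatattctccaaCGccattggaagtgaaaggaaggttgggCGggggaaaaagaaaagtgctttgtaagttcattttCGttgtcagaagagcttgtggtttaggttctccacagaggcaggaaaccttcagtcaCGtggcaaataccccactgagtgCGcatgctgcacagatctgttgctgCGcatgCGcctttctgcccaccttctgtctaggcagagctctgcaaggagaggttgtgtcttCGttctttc
PAGE2: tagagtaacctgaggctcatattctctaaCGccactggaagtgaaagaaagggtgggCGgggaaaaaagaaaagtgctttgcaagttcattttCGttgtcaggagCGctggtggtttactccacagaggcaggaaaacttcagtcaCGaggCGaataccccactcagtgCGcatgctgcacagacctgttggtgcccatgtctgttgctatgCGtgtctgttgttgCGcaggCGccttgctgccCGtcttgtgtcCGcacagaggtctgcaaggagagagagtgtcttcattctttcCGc
MAGEC2: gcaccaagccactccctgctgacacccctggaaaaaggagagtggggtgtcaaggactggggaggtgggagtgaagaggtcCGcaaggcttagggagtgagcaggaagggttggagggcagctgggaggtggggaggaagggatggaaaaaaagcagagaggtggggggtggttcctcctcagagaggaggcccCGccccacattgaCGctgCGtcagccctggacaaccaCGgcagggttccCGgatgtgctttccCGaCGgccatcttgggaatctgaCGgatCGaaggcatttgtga
MAGED1 promoter 1: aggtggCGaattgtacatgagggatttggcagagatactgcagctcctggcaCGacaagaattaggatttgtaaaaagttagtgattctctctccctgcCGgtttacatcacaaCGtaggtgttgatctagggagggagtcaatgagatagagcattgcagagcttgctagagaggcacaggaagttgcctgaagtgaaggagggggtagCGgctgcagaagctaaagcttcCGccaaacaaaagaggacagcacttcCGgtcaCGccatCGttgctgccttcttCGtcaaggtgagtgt
MAGED1 promoter 2: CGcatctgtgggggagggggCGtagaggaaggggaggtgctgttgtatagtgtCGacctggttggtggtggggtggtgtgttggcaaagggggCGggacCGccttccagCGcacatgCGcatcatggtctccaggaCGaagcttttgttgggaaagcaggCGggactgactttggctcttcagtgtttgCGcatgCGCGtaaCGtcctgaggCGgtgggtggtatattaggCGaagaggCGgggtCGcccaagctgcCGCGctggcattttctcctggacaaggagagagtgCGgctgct

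PAGE5 has 10 CG in this window, PAGE2 has 13, MAGEC2 has 10, and the MAGED1 windows have 10 and 20, against a median of 14 over 35116 promoters. The PAGE5 and PAGE2 windows are 70.1% identical. A GC box (GGGCGG, either strand) was found once in PAGE5, PAGE2, MAGEC2 and the second MAGED1 window, and 45.0% of all promoters hold it. The core of ETS factor sites (CGGAAG, either strand) was found 2 times in the first MAGED1 window and in 19.5% of all promoters. A CCAAT box (CCAAT, either strand) was found in PAGE5, as in 34.6% of promoters. Methylation was not measured, and these matches describe letters only. Of the 28 genes, 20 had a promoter entry in the table used.

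The families differed in level between the lines. Levels were set side by side as reads scaled to library size (RPM) and, between genes, also to exon length (RPKM), computed from the recovered reads. This is a description, since the tables were normalised line by line. In A375 the genes named MAGEA, MAGEB, MAGEC, PAGE, GAGE and CTAG took 1090, 1114 and 1030 RPM in the positive and 1081, 992 and 981 RPM in the negative libraries. The same genes in 253J took 1.58, 1.42 and 0.725 RPM in the positive and 2.39, 0.502 and 0.456 RPM in the negative libraries. Every A375 library thus held far more reads of these families than any 253J library.

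**Figure D1:**
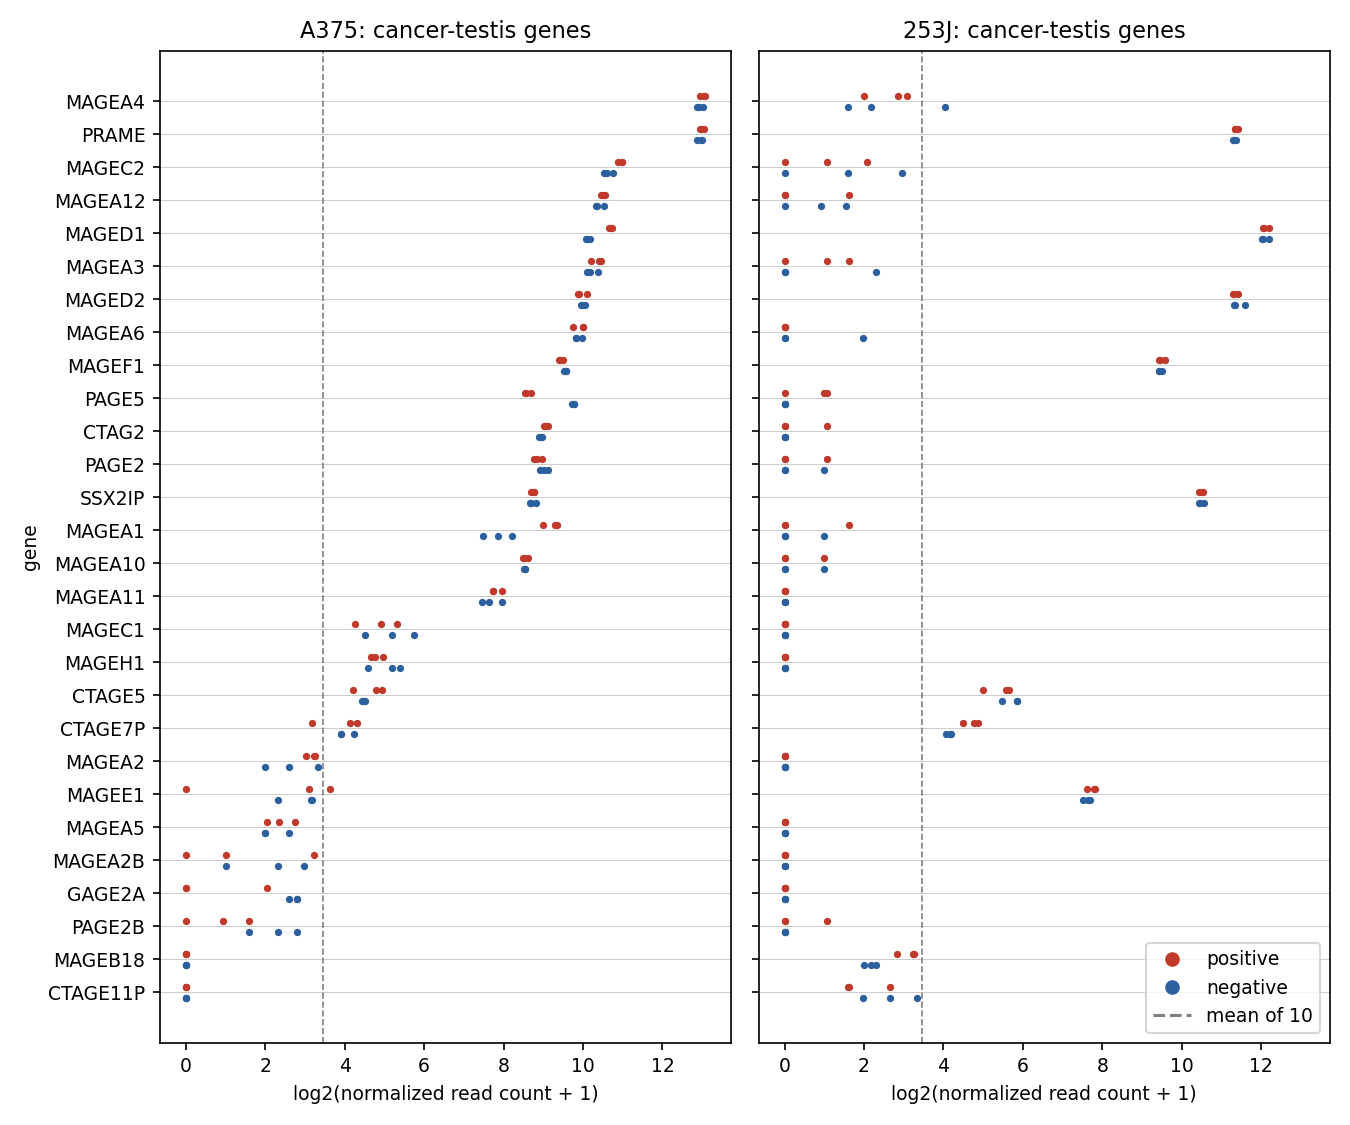
Level of all 28 cancer-testis genes in the 12 libraries, as log2(normalised read count + 1), 1 point per library in red (positive) or blue (negative), with the mean of 10 used as filter as a dashed line. In A375 20 genes average above the line and in 253J 8, and MAGEA4 and PRAME are highest in A375.

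The plot of levels by library shows counts not scaled to gene length, whereas the order given here is in RPKM. In A375 the highest level per length was MAGEA4, a frequent target of T-cell therapies, at 160 to 181 over the 6 libraries with a median of 172. PRAME, a leucine-rich repeat protein that serves as a substrate receptor of CUL2 ubiquitin ligases and represses retinoic acid receptor signalling, ranged from 128 to 147, without overlap with MAGEA4. MAGEC2 (48.3 to 65.5), PAGE5 (32.1 to 75.9), PAGE2 (42.4 to 54.4), MAGEA12 (42.8 to 49.2) and MAGEA3 (39.8 to 50.9) followed on the same scale, and their ranges over the 6 libraries overlapped. For PAGE5 the overlap came from pooling the branches. It averaged 75.4 ± 0.668 in the negative branch, above MAGEC2 at 51.7 ± 3.89, and 33.7 ± 2.09 in the positive branch, below MAGEC2 at 64.0 ± 1.92 and PAGE2 at 45.6 ± 3.55. CTAG2 (31.3 to 35.9), MAGEA6 (30.1 to 35.7) and MAGEF1 (26.6 to 30.4) came next, each overlapping the one after it. MAGED2 (median 22, highest 24.2) and MAGED1 (11.7 to 18.1) did not overlap each other, while MAGEA1 (6.78 to 24.6) overlapped both. The medians of MAGEA10 and MAGEA11 were 8.23 and 3.97, and those of SSX2IP, MAGEH1, MAGEC1, CTAGE7P and CTAGE5 ran from 3.18 down to 0.132. Exon lengths were not corrected for sequence shared with other genes. Of the 50-base exon windows of PAGE2, CTAG2, MAGEA6 and MAGEA3, 38.6%, 43.1%, 53.9% and 56.5% occur elsewhere. Their places in this order are therefore uncertain.

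In 253J the order per length was led by MAGED2 (54.8 to 68.4), which did not overlap MAGED1 (44.0 to 51.0). MAGED1 overlapped PRAME (42.8 to 46.7). Below these came MAGEF1 (26.7 to 30.4), SSX2IP (10.4 to 11) and MAGEE1 (3.23 to 3.99), none of which overlapped its neighbours in this order. The 3 X-linked cancer-testis genes tested in 253J were all type II MAGE genes, namely MAGED1, MAGED2 and MAGEE1.

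Of the 28 genes, 20 passed the filter in A375 and 8 in 253J, 7 of them in both. The 7 were MAGED1, MAGED2, MAGEF1, PRAME, SSX2IP, CTAGE5 and CTAGE7P, and MAGEE1 passed in 253J alone. The lowest mean that passed in A375 was 14.9 for CTAGE7P and the highest that did not was 6.82 for MAGEA2. In 253J these were 21.1 for CTAGE7P and 6.28 for MAGEA4. MAGEA2 and MAGEA2B share most of their exon sequence, so the counts of both are uncertain. MAGEB18 and CTAGE11P had no read in any A375 library. In 253J the genes without a read were MAGEA2, MAGEA2B, MAGEA5, MAGEA11, MAGEC1, MAGEH1 and GAGE2A. The filter on the mean over all 6 libraries can pass a gene through 1 branch alone, so counts over tested genes are not counts over all 28.

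The labelled tissues were checked against their defining markers. The summed melanocytic markers in A375 were 10343.1 to 13867.6 in the positive and 13028.2 to 25314.4 in the negative libraries, with 2 of the 5 tested, TYR and DCT, called lower in the positive branch, where 5.26% of all genes were. Epithelial markers in A375 summed to 953.5 to 1261.7, with KRT18 called lower in the positive branch and EPCAM at 0 in the negative libraries. In 253J they summed to 35295.2 to 41546.5, carried by keratins and CDH1, which was called lower. EPCAM, a further epithelial marker, was near 0 there as well, at 0.0 to 6.1. In 253J melanocytic markers summed to 1216.8 to 1284.4, most of it MITF at 1116.8 to 1192.3. PMEL was at 56.9 to 113.4, DCT at 6.2 to 20.2, MLANA at 0.0 to 7.1 and TYR at 0 there. The 1 germ cell marker of 9 present in the tables, SYCP3, stayed between 1.0 and 8.3 in all 12 libraries. Leukocyte markers, 3 of 10 present, summed to 3.0 to 25.4. Endothelial markers, 3 of 5 present, summed to 62.8 to 138.5 in A375, most of it KDR at 57.8 to 130.6. In 253J they summed to 0.0 to 5.0, with KDR at 0. The part of the melanocytic and KRT18 differences in the A375 results was not tested.

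The libraries of each line also carry sample numbers that fall into a low set, up to 12, and a high set, from 19 on, which the labels do not explain. In A375 the low set holds positive libraries 1 and 2 and negative library 1, and the high set holds positive library 3 and negative libraries 2 and 3. The summed MAGEA values were 13634.9, 13780.3 and 13074.2 in the low set and 12442.7, 11773.0 and 11623.3 in the high set, so that every low-set library lay above every high-set library. Within-set differences are therefore given below for each called cancer-testis gene. They are not given for called markers, neighbours or genes of the other lists, so how those calls depend on the set is not shown.

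PAGE5 is a member of the PAGE and GAGE superfamily of small, acidic, largely unstructured proteins, and is encoded by ENSG00000158639 at chrX:55220355-55224108 on the plus strand in GENCODE 29 on GRCh38. Its normalised counts in A375 were 372.7, 378.4 and 410.4 in the positive libraries and 867.7, 867.5 and 848.1 in the negative ones. Each positive library was below every negative library by a wide gap, and the libraries within a branch lay close together. The means were 387 ± 20.3 and 861 ± 11.3 (n = 3 each), a log2 change of -1.15 ± 0.06 with a 95% interval of -1.30 to -1.0, or 2.22-fold lower in the positive branch (limma adjusted p = 0.000168). The difference was -1.21 among low-set and -1.06 among high-set libraries. When libraries of the same branch and number set were first averaged, PAGE5 was still called (limma adjusted p = 0.0378, 0.375% of all genes called). The 253J libraries held 2 reads of PAGE5 in all, 1 in positive library 1 and 1 in positive library 3.

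PAGE2, the relative whose promoter is shown above and which starts 131347 bases away, had 437.1, 459.8 and 499.6 in the positive and 485.7, 552.9 and 517.6 in the negative libraries. The branches overlapped, through positive library 3 and negative library 1. The means were 466 ± 31.6 and 519 ± 33.6 (log2 difference -0.16, limma adjusted p = 0.289). The ratio of PAGE5 to PAGE2 counts within a library was 0.853, 0.823 and 0.821 in the positive and 1.79, 1.57 and 1.64 in the negative libraries. Their means were 0.832 ± 0.0176 and 1.66 ± 0.111, and an exact two-sided permutation test gave p = 0.1, the smallest that 3 against 3 libraries allow. The ratio restates the values of both genes within a library and is no further evidence. Of the 50-base windows of PAGE2 exons, 38.6% also occur in another gene, mainly PAGE2B, so its count is uncertain, against 12.2% for PAGE5.

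None of the tested neighbours of PAGE5 on chromosome X was called in A375. APEX2 differed by 0.06, FAM104B by -0.07, MAGEH1 by -0.26, FOXR2 by -0.46 (limma adjusted p = 0.117) and RRAGB by 0.07 on the log2 scale. Over all X-linked genes tested in A375, 48 of 457 were called, or 10.5%, with 27 higher and 21 lower.

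**Figure D2:**
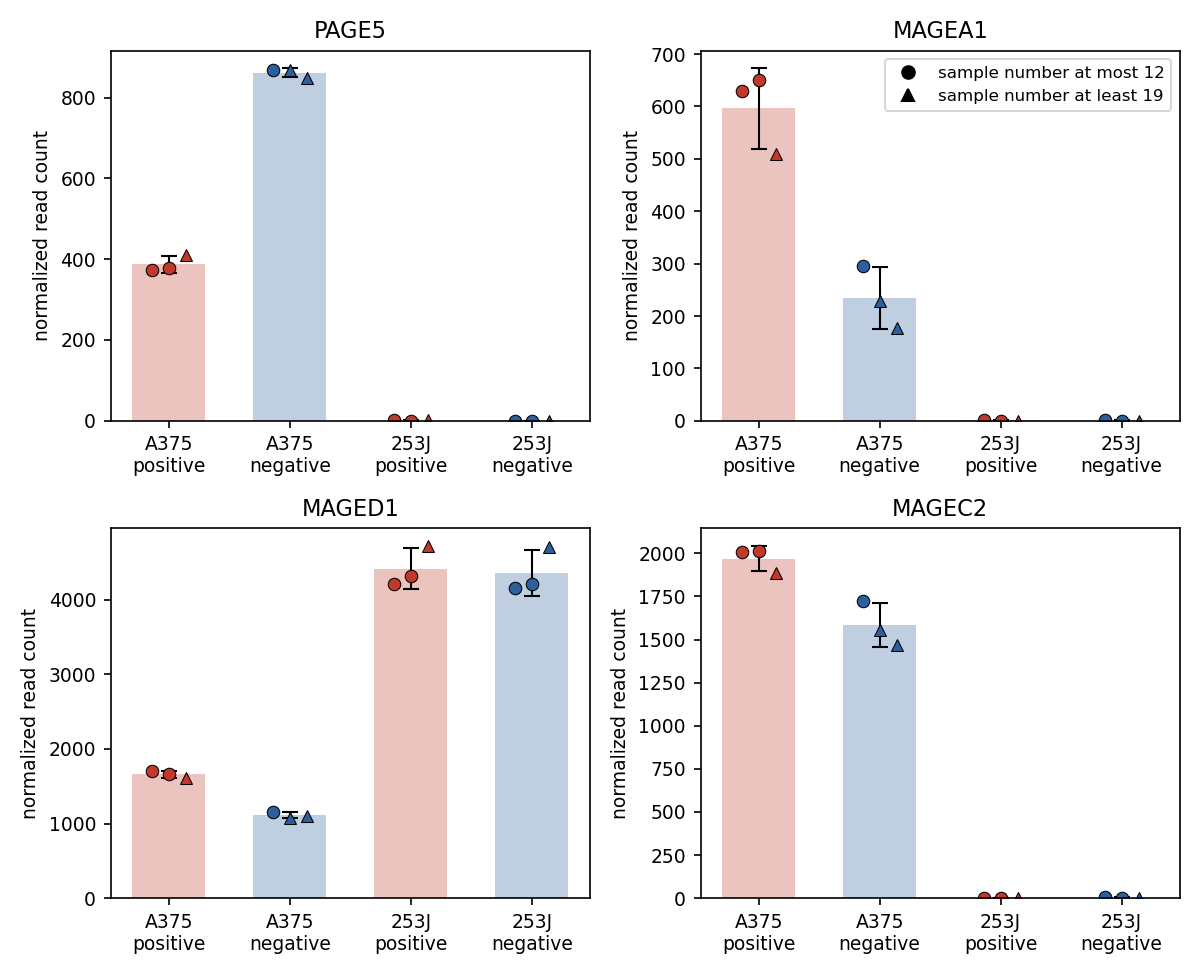
Normalised read counts of the 4 cancer-testis genes called in A375 in each library of A375 and 253J, with bars for the mean, error bars for the SD (n = 3), and circles for sample numbers up to 12 and triangles for those from 19 on. In A375 the positive libraries of PAGE5 lie at 372.7 to 410.4 and all negative ones at 848.1 or above, while MAGEA1, MAGED1 and MAGEC2 lie higher in every positive library.

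MAGEA1 encodes the founding melanoma antigen, the first human tumour antigen found through patient T cells, and lies at chrX:153179285-153183880 on the plus strand (ENSG00000198681). Its counts in A375 were 630.2, 649.9 and 508.7 in the positive and 295.2, 229.5 and 177.2 in the negative libraries. As the plot of the called genes shows, every positive library exceeded every negative one, and within each branch the high-set libraries were the lower ones. The means were 596 ± 76.5 and 234 ± 59.1, a log2 change of 1.37 ± 0.18 (95% interval 0.95 to 1.79) or 2.58-fold (limma adjusted p = 0.00466). Low-set libraries differed by 1.11 and high-set libraries by 1.33. With libraries of the same set averaged it was 1.22 and no longer called (adjusted p = 0.114).

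The rise of MAGEA1, the one MAGEA gene called, can also be read as its share of the family, which is a restatement and no further evidence. It made up 4.62, 4.72 and 4.09% of all MAGEA counts in the positive libraries and 2.26, 1.95 and 1.52% in the negative ones, without overlap. The mean share was 4.48 ± 0.339% against 1.91 ± 0.372%. The ratio of MAGEA1 to MAGEA4 was 0.0712 ± 0.00606 against 0.0295 ± 0.00586, again with an exact permutation p of 0.1, the smallest possible. Of the MAGEA1 windows, 0.662% occur in another gene. Its tested neighbours included ZNF275, called higher by 0.56 (limma adjusted p = 0.0186), and U82695.9, called lower by -2.02 (adjusted p = 0.00472). ZNF185 (0.21), NSDHL (-0.01), CETN2 (-0.14) and HAUS7 (0.21) were not called.

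The other MAGEA genes of A375 were not called. MAGEA4 had 8511.7, 8630.3 and 7919.8 in the positive and 8365.3, 7705.5 and 7517.2 in the negative libraries. These overlapped, and means of 8354 ± 381 and 7863 ± 445 differed by 0.09 on the log2 scale (limma adjusted p = 0.419). An antisense gene, MAGEA4-AS1, shares 172 exon bases with MAGEA4, and whether counting used strand is not stated, so reads of those bases cannot be assigned to either gene. MAGEA3 and MAGEA6, which bind TRIM28 and redirect it to AMPK, had log2 differences of 0.14 (1315 ± 121 against 1191 ± 120, adjusted p = 0.401) and 0.04 (967 ± 94.6 against 936 ± 56.9, adjusted p = 0.799). They share 56.5% and 53.9% of their windows with other genes, mostly with each other, so the division of reads between them is uncertain. Their RefSeq promoter windows are identical throughout.

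MAGEA12 differed by 0.10 (1443 ± 51.8 against 1346 ± 102, limma adjusted p = 0.408) and MAGEA10 by 0.01 (370 ± 18.1 against 366 ± 3.84, adjusted p = 0.94). MAGEA11, a coregulator of the androgen receptor, differed by 0.13 (225 ± 20.8 against 207 ± 36.8, adjusted p = 0.635). MAGEA2, MAGEA2B and MAGEA5 were below the filter, with values from 0 to 9.0 in A375. Of their windows, 96.4%, 88.1% and 56.9% occur in other genes, so these low counts are uncertain. MAGEA10 shares 469 exon bases with the readthrough gene MAGEA10-MAGEA5.

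MAGEC2, a MAGE protein that binds TRIM28, is encoded at chrX:142202345-142205290 on the minus strand (ENSG00000046774). Its counts were 2009.8, 2015.0 and 1883.9 in the positive and 1720.5, 1554.0 and 1470.2 in the negative libraries of A375. The branches did not overlap, though the gap between the lowest positive and highest negative library was small. The means were 1970 ± 74.2 and 1582 ± 127, a log2 change of 0.32 ± 0.07 (95% interval 0.16 to 0.48) or 1.25-fold (limma adjusted p = 0.0271). Within the sets it was 0.23 and 0.32. The call was lost without positive library 1 (adjusted p = 0.11), positive library 2 (0.121), negative library 2 (0.11) or negative library 3 (0.105), without the filter (0.0643), and with same-set libraries averaged (0.33), where the log2 difference was 0.27.

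MAGEC1, the neighbour of MAGEC2, had a low and scattered level, with means of 28.7 ± 10.3 and 36.8 ± 15.6 and a log2 difference of -0.33 (limma adjusted p = 0.652). LDOC1 (0.08) and SLITRK2 (0.56, adjusted p = 0.121), the other tested neighbours, were not called.

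CTAG2, also known as LAGE-1 and closely related to NY-ESO-1, averaged 533 ± 17.5 in the positive and 490 ± 11.6 in the negative branch of A375. Its branches did not overlap, but the log2 difference of 0.12 was not called (limma adjusted p = 0.296), and 43.1% of its windows occur elsewhere, mainly in CTAG1B. No overlap between branches was seen in 6 of the 20 genes tested, at a background of 29.5% of all genes. The 6 were PAGE5, MAGEA1, MAGED1, MAGEC2, CTAG2 and MAGEF1.

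GAGE2A and PAGE2B stayed below the filter. GAGE2A had 3.1, 0.0 and 0.0 in the positive and 5.0, 5.9 and 6.0 in the negative libraries, and PAGE2B had 0.0, 0.9 and 2.0 and then 2.0, 5.9 and 4.0. Both had 0 to 6 reads per library, and 85.2% and 52.3% of their windows occur in other genes. With no filter neither was called (limma adjusted p = 0.14 and 0.213).

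MAGED1 (NRAGE), a type II MAGE protein that binds the neurotrophin receptor p75 and takes part in cell death signalling, lies at chrX:51803007-51902357 on the plus strand (ENSG00000179222). Its counts in A375 were 1700.5, 1666.8 and 1606.3 in the positive and 1159.0, 1078.2 and 1102.9 in the negative libraries. The branches stood far apart relative to the spread within each. The means were 1658 ± 47.7 and 1113 ± 41.4, a log2 change of 0.57 ± 0.05 (95% interval 0.45 to 0.70) or 1.49-fold (limma adjusted p = 0.00119). It was 0.54 in low-set and 0.56 in high-set libraries, and 0.55 with same-set libraries averaged, where it was no longer called (adjusted p = 0.0838).

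In 253J MAGED1 had 4204.4, 4310.8 and 4722.0 in the positive and 4159.5, 4203.3 and 4706.9 in the negative libraries. The branches overlapped almost fully, with library 3 the highest in each. The means were 4412 ± 273 and 4357 ± 304, a log2 difference of 0.02 ± 0.07 (95% interval -0.14 to 0.18, limma adjusted p = 0.938). The change in A375 exceeded that in 253J by 0.56 ± 0.09 on the log2 scale (95% interval 0.36 to 0.75, limma adjusted p = 0.00304), and this call was lost with same-set libraries averaged (0.53, adjusted p = 0.178, 0 of the 7 genes called and 0.68% of all genes). It was kept under the other alternatives run on that contrast.

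**Figure D3:**
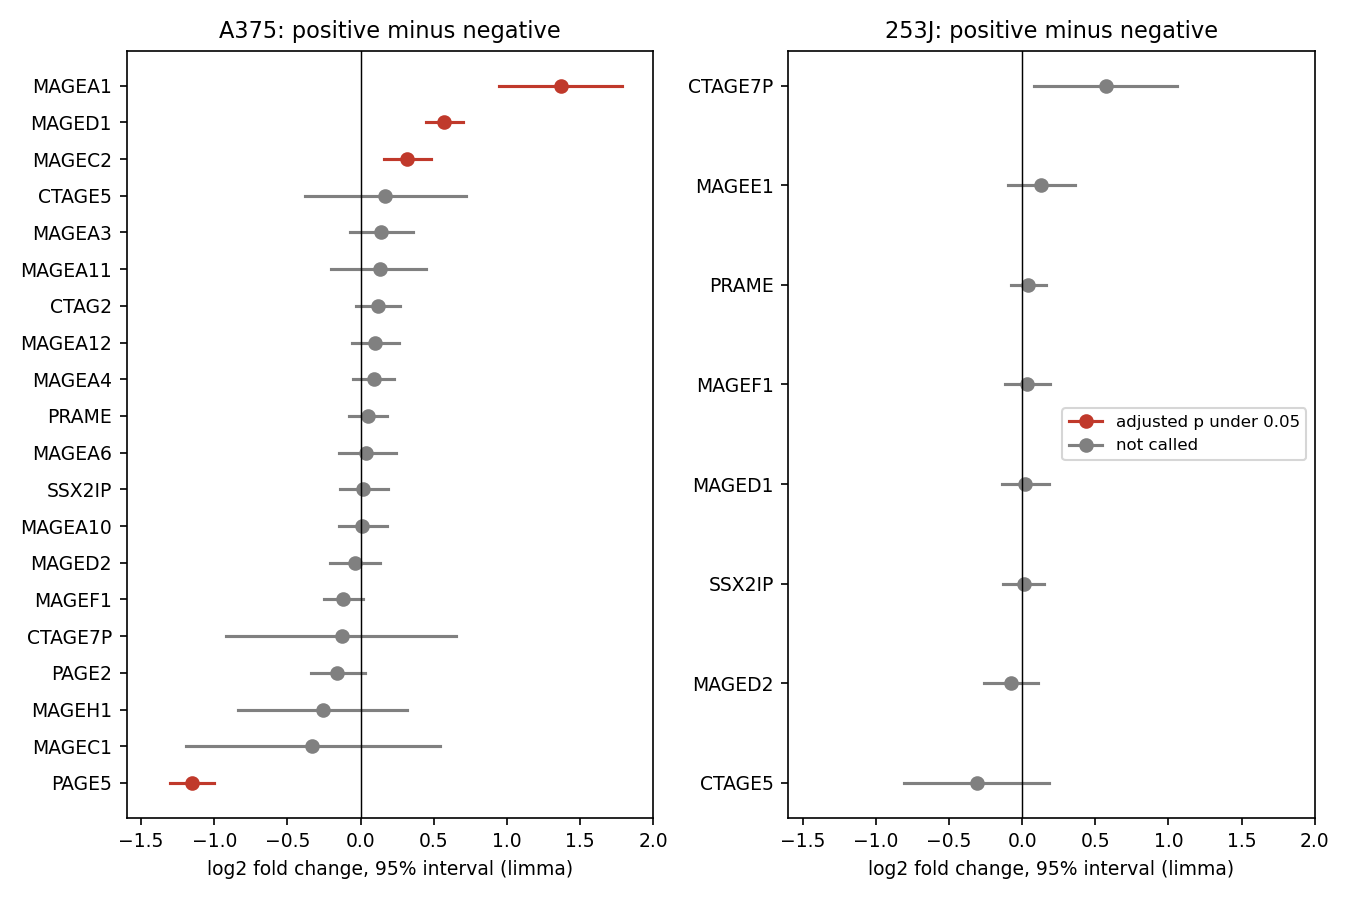
Log2 change of positive minus negative for each tested gene, 20 in A375 and 8 in 253J, with 95% intervals from limma, red where the adjusted p was under 0.05 and grey otherwise. PAGE5 at -1.15 and MAGEA1 at 1.37 lie farthest from 0 in A375, and in 253J none was called.

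MAGED2, its closest relative and a protein needed for salt reabsorption in the fetal kidney, averaged 992 ± 83.3 and 1016 ± 37.8 in A375 (log2 difference -0.04, limma adjusted p = 0.803) and 2590 ± 112 and 2738 ± 311 in 253J (-0.08, adjusted p = 0.746). The ratio of MAGED1 to MAGED2 in A375 was 1.68 ± 0.176 in the positive and 1.10 ± 0.0728 in the negative branch (exact permutation p = 0.1, the smallest possible). In 253J it was 1.70 ± 0.0408 and 1.6 ± 0.0699 (exact permutation p = 0.2). MAGED1 had already been called in A375 from the same values, so these ratios are a restatement and no further evidence. The plot of within-library ratios sets these side by side.

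**Figure D4:**
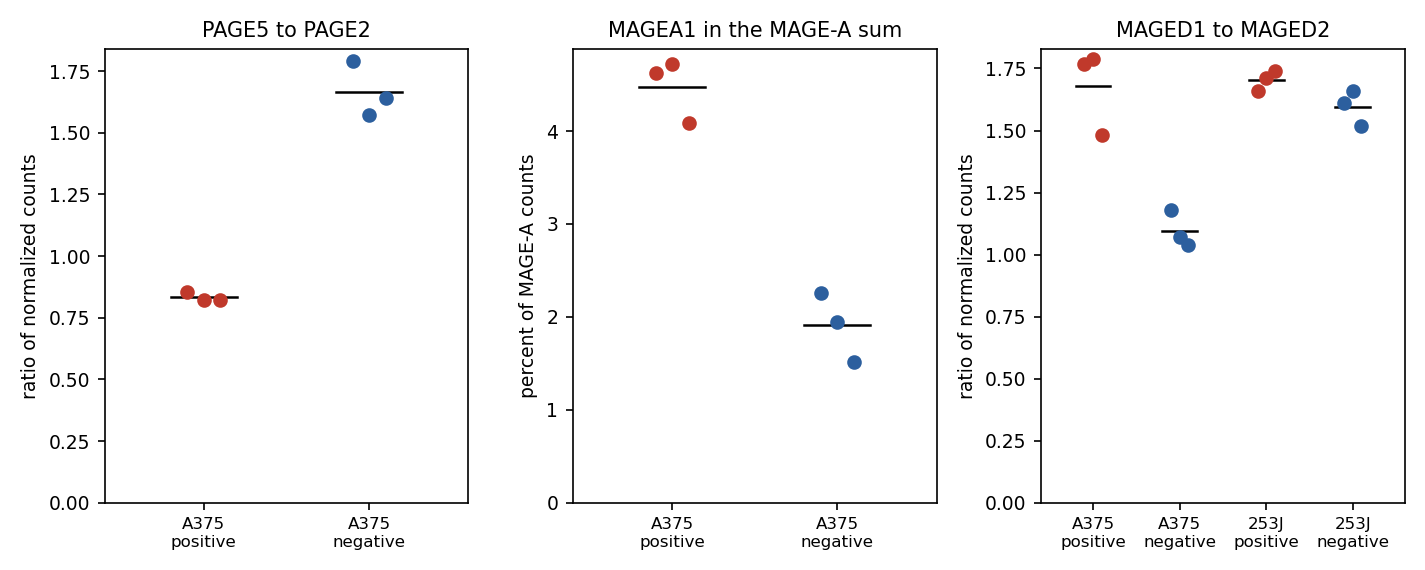
Values within a library, 1 point per library with the branch mean as a line: ratio of PAGE5 to PAGE2 counts in A375 (left), MAGEA1 as a percentage of summed MAGEA counts in A375 (middle), and ratio of MAGED1 to MAGED2 counts in both lines (right). PAGE5 to PAGE2 is 0.821 to 0.853 in the positive and 1.57 to 1.79 in the negative libraries, and the MAGED1 to MAGED2 ratio separates the branches in A375 but meets in 253J.

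The tested neighbours of MAGED1 in A375 included SHROOM4, called lower by -0.52 (limma adjusted p = 0.0468). GSPT2 (-0.03), CLCN5 (0.44), TSPYL2 (-0.03), KANTR (-0.57, adjusted p = 0.0587) and KDM5C (-0.06) were not called. Exons of PAGE5, MAGEA1, MAGEC2 and MAGED1 overlap those of no other gene in the annotation.

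MAGEF1, which with NSMCE1 targets the iron-sulphur assembly factor MMS19, averaged 694 ± 25.1 against 752 ± 14.4 in A375 (log2 difference -0.12, limma adjusted p = 0.273) and 720 ± 40.4 against 702 ± 21.8 in 253J (0.03, adjusted p = 0.87). MAGEH1 averaged 26.9 ± 3.09 and 33.2 ± 9.33 in A375 (-0.26, adjusted p = 0.58). MAGEE1, a dystrobrevin-binding protein, had 0 to 11.4 in A375 and passed the filter in 253J, with 193.5, 225.6 and 220.2 in the positive and 204.3, 197.8 and 180.6 in the negative libraries. These overlapped, and the log2 difference was 0.13 (adjusted p = 0.624).

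PRAME was high in both lines and was not called in either. In A375 it had 7893.0, 7976.6 and 8478.2 in the positive and 7440.7, 8101.2 and 8002.0 in the negative libraries. These overlapped, with means of 8116 ± 317 and 7848 ± 356 and a log2 difference of 0.05 (limma adjusted p = 0.642). In 253J the means were 2632 ± 72.2 and 2563 ± 52.7, a difference of 0.04 with a 95% interval of -0.08 to 0.16 (adjusted p = 0.803).

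SSX2IP differed by 0.02 in A375 (428 ± 11 against 421 ± 22.8, limma adjusted p = 0.876) and by 0.01 in 253J (1441 ± 51.3 against 1432 ± 61.2, adjusted p = 0.964). CTAGE5, annotated as MIA2 on chromosome 14 and acting in protein export from the endoplasmic reticulum, differed by 0.17 in A375 (adjusted p = 0.718) and by -0.31 in 253J (42.4 ± 9.97 against 52.3 ± 7.72, adjusted p = 0.581). CTAGE7P, a processed pseudogene, was the gene of 253J with an unadjusted p under 0.05, at 21.4, 26.4 and 28.4 in the positive and 17.3, 15.8 and 17.1 in the negative libraries. Its branches did not overlap there, as in 20.2% of all genes, and the log2 difference of 0.57 ± 0.22 was not called (limma adjusted p = 0.298). In A375 it differed by -0.13 (adjusted p = 0.852), with 0.32 in low-set and -0.88 in high-set libraries.

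**Figure D5:**
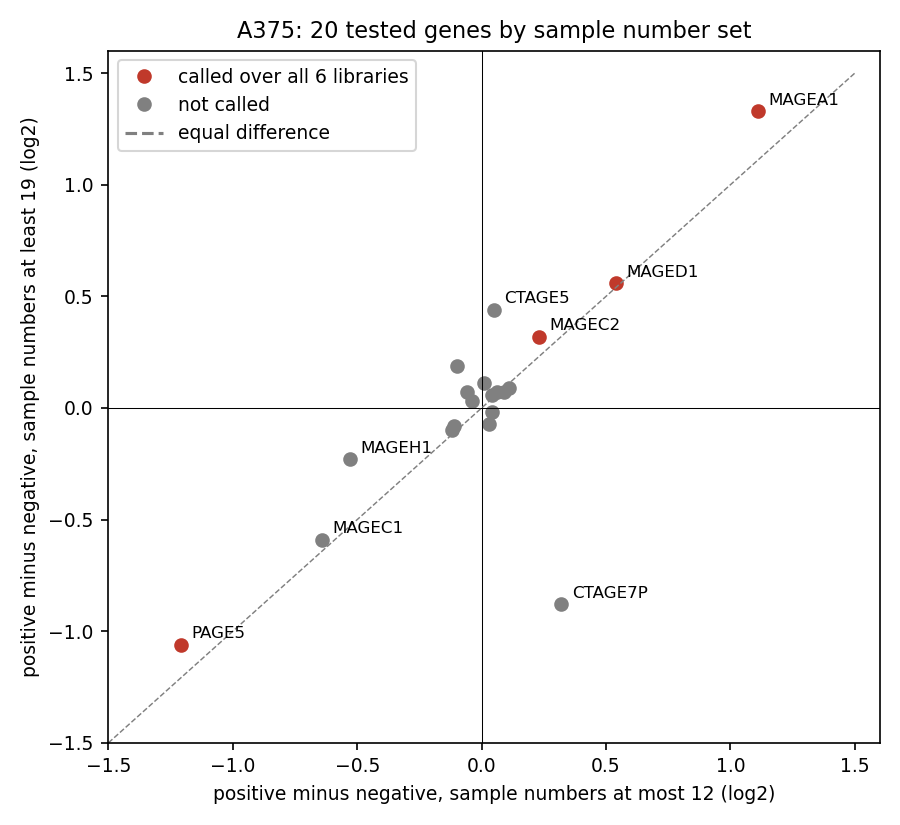
Difference of positive minus negative on the log2 scale within the low (horizontal axis) and the high (vertical axis) sample number set, for the 20 genes tested in A375. The 4 called genes keep their direction in both sets, PAGE5 at -1.21 and -1.06 and MAGEA1 at 1.11 and 1.33, while CTAGE7P, at 0.32 and -0.88, does not.

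Over the 20 genes tested in A375 the median log2 difference was 0.05, against 0.0 over all genes tested, and the 16 that were not called lay between -0.33 and 0.17. The plot of differences within the number sets shows the called genes with the same direction in both sets. With the set as a block, which called 32.0% of all genes, the 4 were called and MAGEC1 and PRAME as well. Over the 8 genes of 253J the median was 0.03, with a range of -0.31 to 0.57.

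Cancer-testis genes outside these families were also examined. Of 59 listed, 23 were in the tables and 14 were tested in A375, where 1 rose, 0 fell and the median was 0.02. That is 7.14% called, below the 10.2% of all genes. The gene was CSAG1, an X-linked cancer-testis gene, with 641.6, 660.3 and 668.9 in the positive and 569.5, 562.8 and 548.5 in the negative libraries. The branches did not overlap, and the change was 0.23 ± 0.06 or 1.17-fold (limma adjusted p = 0.0462). In 253J 9 were tested and limma called 0. The other genes with a MAGE homology domain, 2 tested in A375 and 3 in 253J, gave 0 limma calls in either line, among them NDN with 0.09 in A375 and -0.33 in 253J (adjusted p = 0.546 and 0.127).

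Of 19 binding partners of MAGE proteins and PRAME tested in A375, 0 rose and 1 fell, or 5.26% called against 10.2% of all genes. It was NGFR, the p75 receptor that MAGED1 binds, with 40.5, 51.1 and 43.6 in the positive and 169.6, 105.8 and 110.5 in the negative libraries. All positive libraries were below all negative ones, and the change was -1.47 ± 0.20, or 2.76-fold lower (limma adjusted p = 0.00549), opposite in direction to MAGED1. Of 17 partners tested in 253J limma called 0.

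Of 34 genes for the silencing and activation of cancer-testis promoters tested in A375, 0 rose and 2 fell, or 5.88% called against 10.2% of all genes. MBD2, a reader of methylated CG, averaged 852 ± 35.4 in the positive and 1071 ± 60.3 in the negative branch (-0.33 ± 0.07, limma adjusted p = 0.0196). PCGF6, a subunit of a Polycomb complex that represses germline genes, averaged 171 ± 3.10 and 223 ± 15.9 (-0.38 ± 0.09, adjusted p = 0.0392). The median of the list was -0.03, and of the 33 tested in 253J limma called 0.

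Among the 13 genes of class I antigen presentation tested in A375, 1 rose and 0 fell, or 7.69% called against 10.2% of all genes. PSMB10, an immunoproteasome subunit, had 83.1, 88.0 and 80.1 in the positive and 54.9, 62.3 and 43.8 in the negative libraries, without overlap (0.65 ± 0.16, 1.56-fold, limma adjusted p = 0.0436). In 253J limma called 0 of the 13, with a median of -0.15.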

How the data were processed

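The authors deposited 1 table per line holding a normalised signal, in which each library's counts are divided by its own size factor, with values rounded to 0.1. Cutadapt, STAR 2.4.2a, HTSeq and DESeq2 and the GRCh38 build are named, per the submitters' processing notes. The strand setting and annotation release are not given in the sources used here. Members and gene lists were chosen with earlier results of these data known.

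Branches were compared with limma-trend on log2(value + 1), with limma 3.58.1 under R 4.3.3, for genes with a mean of at least 10, two-sided, with Benjamini-Hochberg adjustment over all genes tested at 0.05. Each line was fitted alone, and the difference between lines was a contrast over 12 libraries. The pseudocount understates the change of low genes. Dividing by the step between low values gave whole reads within 0.055 for at least 99.99% of values in each library. In 4 of the 12 libraries (the A375 negative libraries and 253J negative library 3) that step is close to 1, so recovery there is hard to tell from rounding. edgeR 4.0.16 and DESeq2 1.42.0 were run on these reads as alternatives only. Scripts were tested on simulated data; the bar for recovery of 2-fold changes was lowered from 80% to 75% after DESeq2 in A375 reached 80%, which the limma test had passed. Exon positions and overlaps came from GENCODE 29, which matched 99.6% of gene identifiers.

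Same-numbered libraries in 253J deviated together (correlations of 0.29, 0.19 and 0.50), a pairing taken from the data since no label states it. Positive 1 with negative 2 (0.21) and positive 2 with negative 1 (0.17) correlated about as well, as libraries of the same sample number set, so number and set are not separated. With the replicate block 1991 genes were called in 253J in place of 155, and 0 cancer-testis genes in both fits. In A375 the correlations were 0.41, -0.27 and 0.40, which do not pair the libraries by replicate number. Pairs within a sample number set correlated at 0.41, 0.38, 0.43 and 0.40, and pairs across the sets at -0.58 to -0.27. The main test holds no term for the set, which is unevenly divided between the A375 branches.

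Every gene found by the name rule is accounted for; those with a mean of at least 10 in a line are named, and of each other list the 2 called genes with the smallest p.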

Additional observations from a re-analysis of the deposited data

Results flagged for a closer look

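The positive minus negative change of MAGED1 differed between the lines. It was 0.57 ± 0.05 on the log2 scale in A375 and 0.02 ± 0.07 in 253J, and the contrast of the changes was 0.56 ± 0.09 (limma adjusted p = 0.00304). With libraries of the same sample number set averaged it was 0.53 and not called (adjusted p = 0.178). All 3 positive libraries of A375 exceeded all 3 negative ones, whereas the branches overlapped in 253J.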

How the results depend on the processing

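The number of genes called over the whole table moved with the treatment of the libraries. In A375 (1447 genes) it was 2429 with the replicate block, 4523 with the number set as a block, 53 with same-set libraries averaged (an alternative chosen after seeing the data, with fewer samples), and 488 to 1878 when 1 library was left out, 548, 488, 541 and 595 without positive library 1 or 2 or negative library 2 or 3. In 253J (155 genes) it was 58 without the filter, 301 with DESeq2, 1991 with the replicate block, 2645 with the set block, 21 averaged, and 39 to 370 leaving out 1 library, the highest without negative library 3. Between lines (770 genes) it was 2032, 3504, 85 and 446 to 906 for the replicate block, set block, averaging and left-out libraries. Of the A375 cancer-testis genes, 4 were called in the main test, 1 (PAGE5) with averaging and 3 to 4 leaving out 1 library, MAGEC2 being the one lost. Between lines 1 was called, MAGED1, against 0 with averaging (MAGED1 0.53, limma adjusted p = 0.178) and 2 without the filter, the second being PAGE5, which has 0 to 1 reads in 253J libraries. The replicate block changed no call of a cancer-testis gene. The cause of these shifts was not tested.

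Genes near 0 changed sign. Under both the set block and averaging in A375, MAGED2 was 0.01, SSX2IP -0.01 and MAGEA6 -0.02, and SSX2IP between lines was -0.02 under both. Leaving out 1 library in A375 gave -0.03 to 0.04 for MAGEA10, -0.10 to 0.01 for MAGED2, 0.00 to 0.13 for MAGEA6, -0.35 to 0.21 for CTAGE7P and 0.00 to 0.07 for SSX2IP. In 253J it gave -0.02 to 0.04 for SSX2IP, -0.01 to 0.06 for MAGEF1, -0.03 to 0.08 for MAGED1 and -0.13 to 0.02 for MAGED2. Between lines it gave -0.05 to 0.09 for MAGED2, -0.03 to 0.03 for PRAME and -0.02 to 0.06 for SSX2IP. With the set block MAGEC1 (-0.62, limma adjusted p = 0.0478) and PRAME (0.08, adjusted p = 0.0252) were also called in A375. The recovered gene reads, 14576506 to 17916519 per library, limit what can be said of genes under a mean of 10.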

Other observations

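Some genes that were abundant in A375 had a few reads in 253J, while MAGEA11 had 0 there. The 11 cancer-testis genes with a mean of at least 200 in A375 and under 10 in 253J summed to 14, 13 and 5 reads in the 253J positive libraries and 35, 5 and 4 in the negative ones. The highest, 253J negative library 1, held 0.216% of the A375 mean of 16181 reads for these genes, and the lowest held 0.0247%. MAGEA4 gave 16 of the 35 reads of that library. Of the melanocytic genes that are abundant in A375, DCT had 14, 14 and 12 reads in the 253J positive and 21, 7 and 10 in the negative libraries, highest in that same library. PMEL had 58, 54 and 98 and then 83, 84 and 113 reads, which was highest in negative library 3. MLANA (0 to 7 reads) and TYR (0 reads) are low in A375 too. The source of these reads was not tested.

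MAGEB18 was below the filter in 253J, with 8.6, 8.4 and 6.1 in the positive and 3.9, 3.5 and 3.0 in the negative libraries, and had no read in A375. The branches did not overlap, as in 20.2% of all genes tested in 253J, and the gene had only 3 to 8 reads per library. Without the filter it was not called (limma adjusted p = 0.115).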
